A study of Mus musculus with 8 samples.

Results

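The 14-3-3 family was described here through its 7 mouse genes, Ywhae, Ywhab, Ywhag, Ywhah, Ywhaq, Ywhaz and Sfn. Their rows were taken by symbol from the expression table, 7 of 24062 listed genes. The 175 cytosines listed at Ywhae, 2000 bp on each side included, and the 51 listed within 1000 bp of the Sfn gene end of lower coordinate were taken by position from a methylation table of 2361680 cytosines. Another 695 cytosines at the spans of Ywhab, Ywhag, Ywhah, Ywhaq, Ywhaz and Sfn, with flanks of 2000 bp, served for comparison.

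The samples were stably transfected clones of the mouse embryonic fibroblast line NIH3T3, grown in medium with 10% serum. Clones 10 and 12 carried 14-3-3ε in the p3xFLAG-CMV-10 vector, whose viral CMV promoter drives a FLAG-tagged protein, and clones 2 and 3 were labelled control and carried the control vector. Transfected cells were selected in 800 µg/mL of G418, each library came from 1 clone grown from a picked colony, and the tagged protein was checked by western blot, per the labels' protocols. The 8 libraries formed 4 groups of 2 clones, since each clone was read both by RNA-seq and by RRBS. RRBS, reduced representation bisulfite sequencing, covers short fragments cut at CCGG and therefore mostly CpG-rich DNA. The endogenous 14-3-3 genes were present in every group. Both tables hold the authors' comparison of the groups of clones and no value per clone, so neither spread nor overlap between clones can be shown. Differences between single clones and an effect of 14-3-3ε cannot be told apart beyond what the deposited tests give. The tables do not state their direction. Positive values were read as higher in 14-3-3ε clones, and every direction below rests on that reading.

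14-3-3 proteins are small acidic proteins that work as dimers. Each dimer holds 2 grooves that bind short stretches of partner proteins around a phosphorylated serine or threonine, and so hides, holds or relocates the partner. The ε form pairs mostly with other family members, while σ, the product of Sfn, mostly pairs with itself. Fibroblasts use the broadly expressed forms, and σ is known as an epithelial form that p53 induces after DNA damage and that is often silenced by DNA methylation in carcinomas.

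The promoter stretches of 3 genes show what RRBS could read at these genes. They run over the 250 bp before the annotated start, 5′ to 3′ on the strand of the gene, from RefSeq in build GRCm38.p6, the assembly of mm10. Capitals mark CpGs with at least 1 cytosine in the methylation table. The Ywhae stretch is chr11:75732637-75732886 on the plus strand, the Ywhag stretch is chr5:135934642-135934891 on the minus strand, and the Sfn stretch is chr4:133602169-133602418 on the minus strand.
Ywhae: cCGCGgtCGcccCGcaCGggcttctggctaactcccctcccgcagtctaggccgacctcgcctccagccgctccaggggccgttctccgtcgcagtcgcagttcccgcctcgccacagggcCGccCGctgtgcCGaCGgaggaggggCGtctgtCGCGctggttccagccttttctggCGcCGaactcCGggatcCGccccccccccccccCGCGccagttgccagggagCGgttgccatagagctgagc
Ywhag: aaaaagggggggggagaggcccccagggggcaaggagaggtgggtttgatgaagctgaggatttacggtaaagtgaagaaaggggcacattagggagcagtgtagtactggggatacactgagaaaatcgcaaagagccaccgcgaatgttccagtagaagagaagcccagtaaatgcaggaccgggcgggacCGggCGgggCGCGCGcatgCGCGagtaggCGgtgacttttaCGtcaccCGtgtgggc
Sfn: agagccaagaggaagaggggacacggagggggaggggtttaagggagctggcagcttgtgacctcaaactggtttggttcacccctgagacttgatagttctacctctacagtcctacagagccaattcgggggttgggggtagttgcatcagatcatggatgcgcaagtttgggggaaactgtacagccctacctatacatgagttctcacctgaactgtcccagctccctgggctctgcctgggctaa

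The Ywhae stretch holds 29 CpGs, more than 93.2% of 32817 RefSeq promoter stretches of this length, and 19 of them were listed. The Ywhag stretch holds 16 CpGs, of which 10 were listed. The Sfn stretch holds 3 CpGs, where the median promoter holds 6, and none was listed. The RRBS cut site CCGG stands once in the Ywhae stretch, in 2 places in that of Ywhag and nowhere in that of Sfn, while 47.0% of all promoter stretches hold it. The GC box GGGCGG, searched on both strands, occurs in 2 places each in Ywhae, Ywhag and Ywhah and not in Ywhaq or Sfn, and 32.7% of promoter stretches hold it. Ywhah, with 29 CpGs and no listed cytosine in its stretch, holds the cAMP response element TGACGTCA, found in 1.55% of promoter stretches. Entries matched for 5 of the 7 genes, not for Ywhab and Ywhaz. All 87 cytosines listed in the promoter entries of these genes, 50 bp after the start included, fell on a C of the stated strand.

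In the comparison of expression, no 14-3-3 gene passed the test, and a higher level of Ywhae was not seen in the clones labelled 14-3-3ε. Ywhae stood at a log2 fold change of -0.03 in the authors' deposited table (standard error 0.18, adjusted p 0.942). Its 95% interval, from the standard error by the normal distribution, ran from -0.38 to 0.31 on the log2 scale, or from 0.771-fold to 1.24-fold. Reads were many at this gene, with a mean normalized count of 15674 in the authors' deposited table, more than in 98.2% of tested genes. The sources used here do not say whether transcripts of the plasmid could be counted under Ywhae, or from which species the cloned sequence came. The count of Ywhae therefore neither checks the labels nor measures the tagged protein.

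The forms with which ε can pair gave small differences as well. Ywhaz, the gene for ζ, had the largest size of the 7, at 0.22 on the log2 scale in the authors' deposited table (standard error 0.17, adjusted p 0.470). Ywhab, the gene for β, likewise stood at 0.22 in the authors' deposited table (standard error 0.22, adjusted p 0.606). Their 95% intervals ran from -0.12 to 0.56 for Ywhaz and from -0.22 to 0.65 for Ywhab on the log2 scale. Both included no difference, and their upper ends, 1.47-fold and 1.57-fold, stayed under 2-fold.

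Ywhah, the gene for η, stood at 0.10 on the log2 scale in the authors' deposited table (standard error 0.24, adjusted p 0.854). For Ywhaq, the gene for θ, the authors' deposited table gave -0.03 (standard error 0.17, adjusted p 0.953). The gene for γ, Ywhag, was nearest to no difference, with -0.0022 in the authors' deposited table (standard error 0.17, adjusted p 0.996). The 95% intervals ran from -0.37 to 0.57 for Ywhah, from -0.37 to 0.31 for Ywhaq and from -0.34 to 0.33 for Ywhag on the log2 scale. In Ywhae, Ywhaq and Ywhag a level more than 25.9% higher lay outside the interval.

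Sfn, the gene for σ, was covered by few reads, with a mean normalized count of 42.2 in the authors' deposited table, where an adjusted p was given from 33.1 upward. It stood at 0.08 on the log2 scale in the authors' deposited table (standard error 0.39, adjusted p 0.933). The 95% interval from -0.68 to 0.84, on the log2 scale, was the widest of the family and leaves room for a level up to 1.79-fold higher. The submitters' processing notes do not say whether folds of weakly covered genes were moderated. Epcam, with a mean normalized count of 0.502, had a standard error of 0.12 in the authors' deposited table, smaller than that of Sfn. A smaller standard error at fewer reads is a trait of folds moderated toward 0. The limit for Sfn therefore holds only on the scale of the table and may be too narrow.

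**Figure D1:**
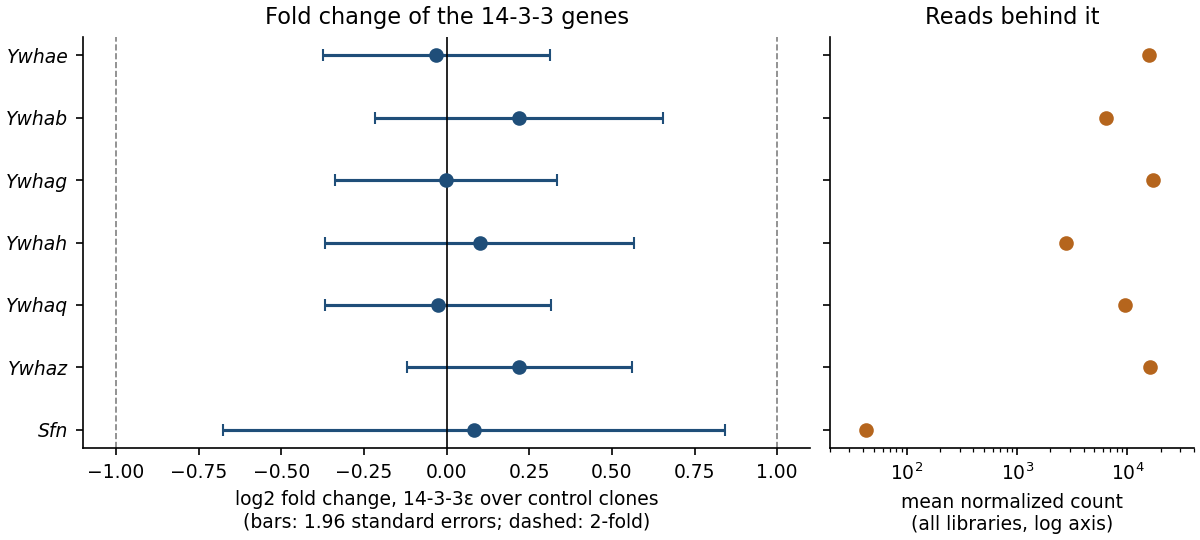
Log2 fold change of each 14-3-3 gene (left; points with 95% intervals, dashed lines at 2-fold) and its mean normalized count over all libraries on a log axis (right), from the authors' deposited table. Every interval crosses 0 and none reaches 2-fold, and Sfn has the widest interval and a mean normalized count of 42.2.

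Over all 11482 tested genes, 10.9% were called at an adjusted p under 0.05, 6.15% higher and 4.74% lower, beside 0 of the 7 family genes. With so few genes, 0 calls is near that share and says little about the family as a group. No family gene had an unadjusted p under 0.05 either, the smallest being that of Ywhaz, 0.203, as deposited by the authors in their table. Among the 2529 tested genes with a mean normalized count of at least 2500, where the 6 Ywha genes lie, 14.8% were called. The median log2 fold change was 0.08 in the family and -0.0027 over all tested genes. The smallest called size was 0.48 for Cct6a (log2) in the authors' deposited table, so differences of the size seen in the family were not called anywhere in it. A fold of the size of Ywhaz or smaller was held by 43.2% of tested genes, and one of the size of Ywhae or smaller by 6.80%. At most 1.11% of tested genes had smaller standard errors than Ywhae, Ywhag, Ywhaq and Ywhaz, while 95.9% had smaller ones than Sfn. The 7 genes cannot be ordered by their folds, since each interval overlaps all others. RefSeq lists 3 processed copies of Ywhaq as pseudogenes, none of which is in the expression table. The sources used here do not say how reads shared by such copies or by family members were assigned.

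**Figure D2:**
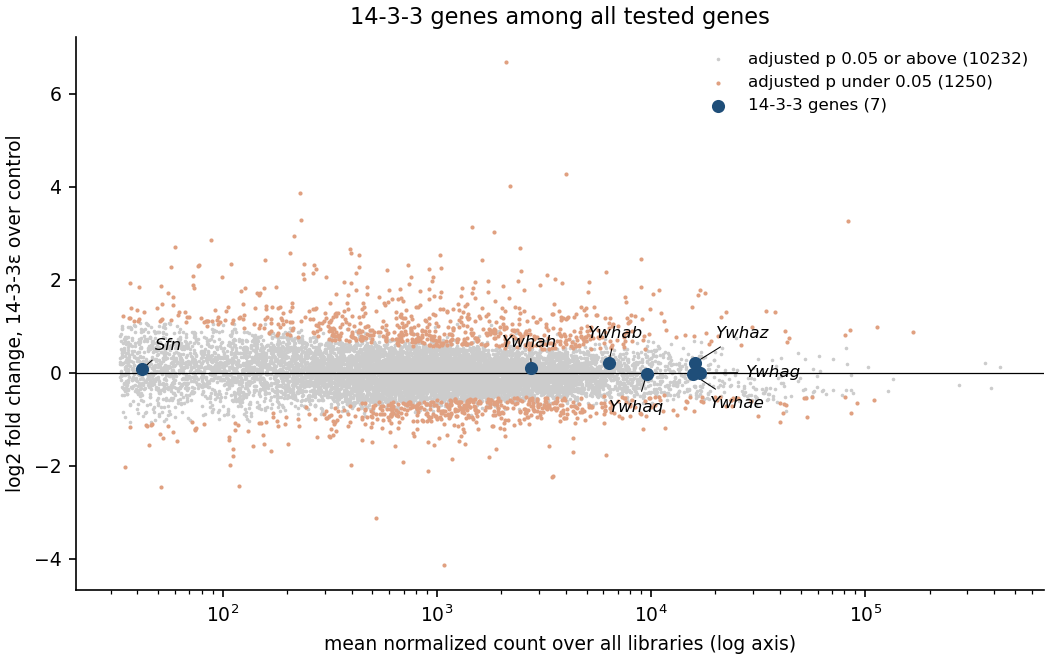
Log2 fold change (vertical axis) against mean normalized count (horizontal log axis) of 11482 tested genes, with those at an adjusted p under 0.05 in orange and the 7 family genes in blue. The family genes lie between -0.03 and 0.22, inside the grey band of genes that were not called.

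Genes next to Ywhae and Sfn were not called either. Within 100 kb of Ywhae, 3 protein-coding genes were tested and none was called, beside 10.9% of all tested genes. With so few neighbours, a lack of calls says little about them. The signalling adaptor gene Crk, nearest to it among these, stood at 0.07 on the log2 scale in the authors' deposited table (standard error 0.18). The authors' deposited table gave a log2 value of 0.09 for the myosin gene Myo1c and of 0.36 for the phosphatase gene Inpp5k. Doc2b, which begins 2429 bp after the end of Ywhae, had a mean normalized count of 3.67 in the authors' deposited table, too low for an adjusted p, as did Rph3al with 11.7. Within 100 kb of Sfn, 6 were tested, and the authors' deposited table gave log2 values from -0.46 for Nudc to 0.31 for Pigv. The smallest adjusted p was 0.0843 for Nudc, and Zdhhc18, the neighbour nearest to Sfn, had -0.0028 in the authors' deposited table. Gpn2 and Gpatch3 stood at -0.31 and -0.05 and Arid1a at 0.09 in the authors' deposited table (log2). The mean normalized counts of Kdf1 and Nr0b2, 0.232 and 0 in the authors' deposited table, were too low for an adjusted p.

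The partner side of the system was read from 5 lists of genes around the family. In all, 1 of 112 tested genes rose and 7 fell, a called share of 7.14% beside 10.9% of all tested genes. Of 38 tested genes of phosphorylation-dependent 14-3-3 partners, 3 fell and none rose, with a median log2 fold change of 0.04. Cdc25b, a phosphatase that starts mitosis, fell by 0.85 (standard error 0.26, adjusted p 0.0140) (log2, authors' deposited table). Wee1, the kinase gene that opposes it, fell by 0.70 (0.22, adjusted p 0.0187), and Larp1, an RNA-binding regulator of translation, fell by 0.55 (0.17, adjusted p 0.0187) (log2, authors' deposited table). Dnmt1, the maintenance DNA methyltransferase named with 14-3-3 in the study's title, was not called at -0.45 (0.27, adjusted p 0.309) in the authors' deposited table. Its interval ran from -0.97 to 0.08 on the log2 scale.

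Of 36 tested kinases that can make 14-3-3 binding sites, 1 rose and none fell (2.78% called), with a median of -0.01. It was Dapk1, the death-associated protein kinase gene, which rose by 2.32 on the log2 scale in the authors' deposited table (standard error 0.35, adjusted p 2.64e-09). None of 16 phosphatase subunits and none of 4 genes whose products modify 14-3-3 proteins was called, beside 10.9% of all tested genes. With so few genes in either list, a lack of calls says little about them. Of 19 genes listed as other readers of phosphoserine and phosphothreonine, 4 fell (21.1%) and none rose. Of all tested genes 4.74% were lower and 10.9% were called in either direction. The list was drawn up by name of function, and phosphate binding by each product, that of Plk4 included, was not tested. The list had a median of -0.41, against -0.0027 over all tested genes. Bard1 and Topbp1, genes of the response to DNA damage, fell by 0.90 and 0.84 (adjusted p 0.0334 and 0.0276) (log2, authors' deposited table). Mdc1, a scaffold of the same response, fell by 0.72 (adjusted p 0.0269), and the centriole kinase gene Plk4 fell by 0.63 (adjusted p 0.0444) (log2, authors' deposited table).

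The cells carried fibroblast transcripts. All 12 fibroblast markers were tested, with mean normalized counts from 2189 to 424650 in the authors' deposited table, and 7 rose and none fell, beside 6.15% higher and 4.74% lower of all tested genes. The 7 were the collagen genes Col1a1, Col1a2, Col3a1 and Col5a1, the receptor genes Pdgfra and Pdgfrb, and Sparc, with log2 fold changes from 0.89 for Col1a2 to 3.25 for Col3a1 in the authors' deposited table. Of 10 epithelial markers, which bear on the reading of Sfn, 8 had a mean normalized count of at most 2.91 in the authors' deposited table, Epcam and Cdh1 among them at 0.502 and 0.732. Krt14 fell by 1.41 (adjusted p 0.00411) and Krt8 stood at 0.66 (adjusted p 0.295) (log2, authors' deposited table), with mean normalized counts of 52.7 and 51.1. Their part in the value of Sfn was not tested.

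In the comparison of methylation, the start of Ywhae showed differences near 0, and 9 of 51 cytosines at the 3′ end of Sfn were called, all higher in 14-3-3ε clones. Across the 6 Ywha genes, 6 of 796 listed cytosines were called at q under 0.05, 3 higher and 3 lower, a share of 0.754%. Across the series 4.74% were called, 1.92% higher and 2.83% lower. Read by surroundings, 541 of the 796 had at least 21 listed cytosines within 100 bp, and none of these was called, against 2.95% of such cytosines in the series. Of the 255 in sparser surroundings 2.35% were called, against 5.49% in the series. At Sfn 10 of 74 were called, all higher, a share of 13.5%. Coverage is unknown, and the sources used here do not say whether the q-values take in the spread between clones of a group. Cytosines of 1 locus share fragments and reads, so they are not replicates and no test was made over them.

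**Figure D3:**
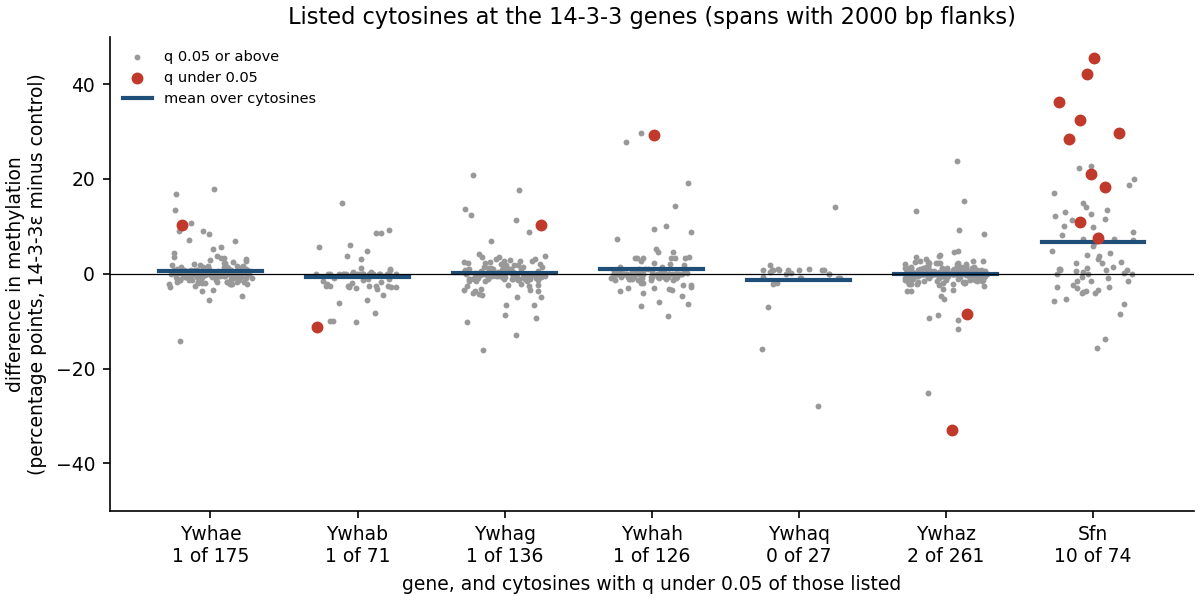
Difference in methylation in percentage points (14-3-3ε minus control) at every listed cytosine of the 7 genes with flanks of 2000 bp, those with q under 0.05 in red and the mean as a bar. Most points of the Ywha genes lie near 0, while all 10 red points at Sfn lie above it.

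Ywhae lies on chr11:75732887-75765841 on the plus strand. Of its 175 cytosines 161 (92.0%) differed by less than 5 percentage points, 35 were listed at exactly 0, and the mean was 0.558 points, from values of the authors' deposited table. In the series 67.7% differed by less than 5 points. A difference near 0 does not tell whether both groups were methylated or unmethylated, because the table gives no level. Within 1000 bp on each side of the start 159 cytosines were listed, with a mean of 0.249 points and 1 called. From 248 bp before the start to 948 bp after it 151 cytosines were listed, with a mean of -0.0314 points and none called. The limit before the start was set after the values were seen, and it leaves out the single call, described below. The 151 include the 30 cytosines in the promoter stretch printed above, which in the authors' deposited table ranged from -2.54 to 9.09 points around a mean of 0.336. Of the 53 cytosines listed in the promoter stretches of Ywhae, Ywhag and Ywhaq none was called, beside 2.24% in promoter stretches of the series.

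A single cytosine of Ywhae was called, 272 bp before the start at position 75732615 on the minus strand. It was 10.4 points higher with a q of 0.0373 in the authors' deposited table. The cytosine of the same CpG on the other strand was 8.33 points higher with a q of 0.121 in the authors' deposited table. Both belong to 8 cytosines from 326 to 272 bp before the start, of which 6 were higher and 2 lower, with a mean of 5.55 points and a highest value of 16.9 points in the authors' deposited table. The 16 cytosines in the 3′ part of Ywhae, 23554 bp or more from the start, held no call. The highest of them stood at 17.9 points (q 0.214) in the authors' deposited table.

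**Figure D4:**
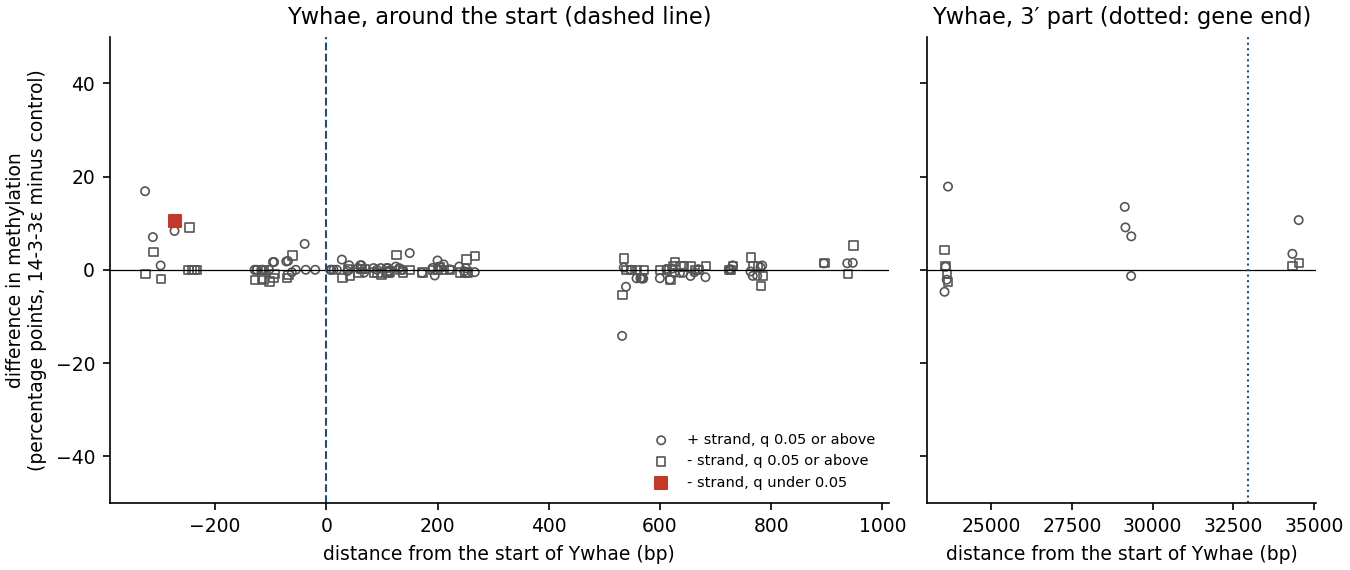
Difference in methylation in percentage points at listed cytosines of Ywhae against distance from its start in bp, near the start (left) and in the 3′ part (right), circles for the plus and squares for the minus strand. From 248 bp before the start to 948 bp after it values average -0.0314 points and range from -14.2 to 9.09. Values in the 3′ part reach 17.9 points without a call. The 1 cytosine with q under 0.05 lies 272 bp before the start.

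Ywhah, on chr5:33018816-33027966 on the plus strand, had its largest differences in a like place. All 16 cytosines listed from 622 to 336 bp before its start were at 0 or higher. Their mean was 10.4 points in the authors' deposited table. Of the 16, 1 was called, a share near the 4.74% called across the series. The called one, at position 33018435, was 29.3 points higher with a q of 0.0126 in the authors' deposited table, and its partner on the other strand 8.82 points higher with a q of 0.592. The largest value of the gene, 29.8 points at position 33018253, had a q of 0.154 in the authors' deposited table. From 170 to 946 bp after the start, 100 cytosines averaged -0.414 points with none called. These limits of distance were set after the values were seen.

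The 4 other calls at Ywha genes lay inside gene spans. In Ywhaz (chr15:36770261-36802984), position 36797761 differed by -33.0 points with a q of 0.00984, by the authors' deposited table the largest difference at the Ywha genes. The other strand of this CpG differed by -25.2 points with a q of 0.0625, and a cytosine at 36797301 by -8.41 points with a q of 0.0179, in the authors' deposited table. The 243 cytosines of Ywhaz between 36792248 and 36794096, where they are densest, held no call. Across the series 4.74% of cytosines were called, and 2.95% of those in dense surroundings. In Ywhab (chr2:163995197-164018588), position 164002392 differed by -11.1 points with a q of 0.0241 in the authors' deposited table. In Ywhag (chr5:135908379-135934641), position 135926371 was 10.2 points higher with a q of 0.0196 in the authors' deposited table. Ywhaq (chr12:21390329-21417436) had 27 listed cytosines and none called, too few for a lack of calls to say much. At none of the 6 genes did 2 called cytosines belong to the same CpG.

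At Sfn, on chr4:133600556-133602168 on the minus strand, the end of lower coordinate is the 3′ end. In the window of 1000 bp on each side of it, 9 of 51 cytosines (17.6%) were called and all 9 were higher, with a median of 7.42 points over the 51 values of the authors' deposited table. Of the 51, 38 were higher and 11 lower. Of the 9, 8 lay outside the gene, from 986 to 710 bp beyond its 3′ end, in a stretch of 277 bp (chr4:133599570-133599846) that overlaps no gene of the RefSeq table. Within this stretch 30 cytosines were listed, and 6 of 18 CpGs had a call.

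The strongest call was 972 bp beyond the 3′ end, at 133599584 on the minus strand, 45.6 points higher with a q of 1.82e-09 in the authors' deposited table. Its partner on the plus strand was 18.3 points higher (q 0.00427) in the authors' deposited table. The next CpG, at 133599597 and 133599598, was 32.5 and 42.2 points higher on the plus and minus strands (q 7.26e-05 and 2.22e-05) in the authors' deposited table. These were the 2 CpGs of the locus called on both strands. Further calls were 29.7 points at 133599570 (q 0.00250), 20.95 at 133599621 (q 0.0390), 36.3 at 133599844 (q 0.00266) and 28.5 at 133599846 (q 0.0301) in the authors' deposited table. Between the called positions others were lower, down to -15.7 points in the authors' deposited table without a call.

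Both strands could be compared at 17 CpGs between 133599350 and 133599901, and at 15 of them the strands had the same sign. The minus strand averaged 11.9 points and the plus strand 7.93 points at these CpGs in the authors' deposited table. A further call, 1205 bp beyond the 3′ end and outside the window, was 11.0 points higher with a q of 0.0435, and its partner was at 0.903 points (q 0.886) in the authors' deposited table.

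Inside Sfn, 12 cytosines were listed from 651 to 840 bp after the start, all on the minus strand. One was called, at 133601482, 7.58 points higher with a q of 0.0405 in the authors' deposited table, and the 12 averaged 1.44 points. Upstream, 10 cytosines between 1776 and 1640 bp before the start averaged 0.808 points with none called. No cytosine was listed between 1640 bp before and 651 bp after the start, so the promoter of Sfn was not read. Of the 10 calls at Sfn, 9 thus lay beyond the 3′ end and 1 inside the gene, and the transcript, as given above, was not called.

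**Figure D5:**
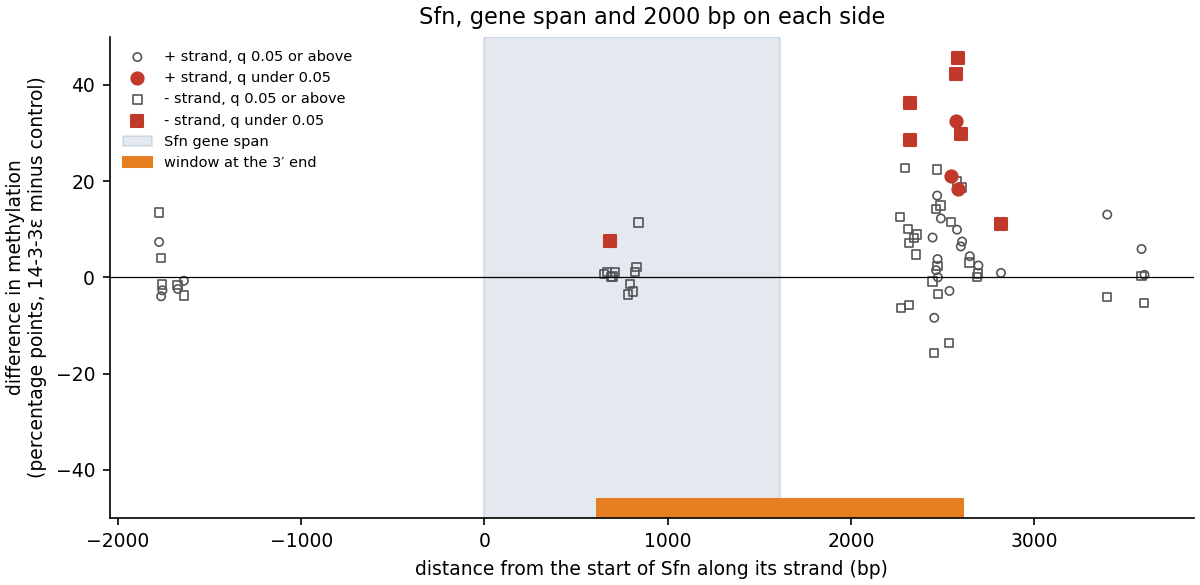
Difference in methylation in percentage points at listed cytosines of Sfn against distance from its start along its strand in bp, with the gene span shaded and the window at the 3′ end as an orange bar. The calls between 18.3 and 45.6 points cluster beyond the 3′ end, and no cytosine is listed around the start.

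Set beside other genes, 19 of 15356 protein-coding gene spans with flanks of 2000 bp and at least 20 listed cytosines had a mean difference as high as Sfn or higher, itself included (0.124%). The median over spans was -0.171 points for the mean difference and 2.89% for the share of cytosines called. Ywhaz and Ywhag, at -0.0626 and 0.116 points, lay near that median, and Ywhah, at 0.991 points, was reached or passed by 10.2% of spans. Means at or above those of Ywhae and Ywhab were held by 18.6% and 67.9% of spans, and Ywhaq, with few cytosines, was passed by most (82.7%). Among 12470 gene ends with 1000 bp on each side, 67 had a share of higher calls as large as the 3′ end of Sfn (0.537%). A share of calls in either direction as large was held by 2.93% of these gene ends, and one as large as in the Sfn span by 3.86% of spans. This is a description of these tables, and Sfn was singled out with such values known.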

How the data were processed

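For each assay 1 table was deposited, holding a comparison made by the authors and nothing per library. Reads were aligned to mm10, and Trim Galore, Bismark, Bowtie2, methylKit, TopHat2, HTSeq and DESeq2 were used, per the submitters' processing notes, which give neither versions nor settings. For RNA-seq the authors deposited a mean level (a signal, read here as the mean of normalized counts), a log2 fold change with its standard error, a test statistic (a score), p-values and adjusted p-values. For RRBS they deposited, per the file headers, p-values, q-values and differences in percent methylation for single cytosines. RRBS started from 1 µg of DNA with fragments of 150 to 400 bp, and RNA libraries had inserts of about 200 bp, per the labels' protocols. Depth and coverage per sample are unknown, so no counting interval is given.

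A gene was called where the authors' adjusted p was under 0.05, and a cytosine at q under 0.05. The planned count model needs counts per library and was not used. The 253 exact duplicate lines of 2361933 were removed. Means over cytosines are unweighted. Strand was taken from the RefSeq promoter table. Tables were read with pandas 2.3.3 in Python 3.11.15, and the adjustment and window counts were tested on simulated data. The members and lists were chosen with earlier results of these data known, and the shares by density, the distance limits before the starts and the ranks among all genes were added after seeing the data. Named were the 7 genes, called members of each list (at most 12), Dnmt1, and protein-coding neighbours within 100 kb in the expression table. Called cytosines at Ywhae and the Sfn end were named too, with the 3 largest differences elsewhere. The other called cytosines and Cct6a were named after their values were seen. Alternatives changed the threshold, the adjustment, the scaling, the window and the unit.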

Additional observations from a re-analysis of the deposited data

How the results depend on the processing

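No member of the family was called under any of the 4 alternatives. Thresholds were an unadjusted p under 0.05 and an adjusted p under 0.1. The rest were adjustment over all 17478 genes with a p-value, and folds re-centred on the median of tested genes. In the authors' deposited test the smallest p of the family was 0.203 and the smallest adjusted p 0.470, both for Ywhaz. The alternatives could therefore hardly give a call, and their outcome says little about how firm the result is. Re-centring moved folds by 0.0027 and turned the sign of Ywhag alone, from -0.0022 to 0.00057. In the lists, 3 genes were higher at an adjusted p under 0.1 in place of 1. At Ywhae the 1 call was lost at q under 0.01 (0 calls), with 25 points required (0 calls) and without flanks (0 calls), since it lies outside the gene with a difference of 10.4 points and a q of 0.0373. At the other members 15 calls became 7 at q under 0.01, 8 with 25 points required and 5 without flanks. Without flanks the calls 3′ of Sfn are left out. In the window of 1000 bp on each side of the 3′ end of Sfn, 6 of 9 calls passed q under 0.01 and 6 passed 25 points, all higher. With 500 bp on each side no cytosine was listed there, so that window gave no value. The other alternatives moved counts by less than 1.5 times. No paired analysis was possible because the tables hold no value per clone, and no clone could be left out for the same reason.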
